A study of Arabidopsis thaliana with 8 samples.

Results

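The 128 windows described here are the 500-bp stretches behind Arabidopsis genes whose read density was raised in every library of 3 mutants. They were chosen by their measured values, with 1 window taken per locus (that of the lowest-numbered transcript model). A window was kept when its WT mean lay between 5 and 499 raw counts and when each of the 6 mutant libraries had a CPM at least 1.5 times that of the higher WT library. CPM is the count divided by the total of all deposited windows of that library, per 1000000. Of 31109 loci, 11906 had a WT mean in that range, and the 128 members were 1.08% of these. Because these values chose the members, their differences between mutants and WT are given as a description. Windows lowered to the same extent in every mutant library, by the mirrored rule, numbered 86 (0.722% of the 11906).

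The libraries came from polyadenylated RNA of 9-day-old Col-0 seedlings, with 2 replicates in each of 4 lines. The line fip37L carries the fip37-4 mutation and a FIP37 copy driven by the LEC1 promoter, which supplies FIP37 in the embryo. The line cpsf30-1 lacks both the short and the long protein of the CPSF30 gene, and cpsf30-3 lacks the long one, CPSF30L, only. WT was Col-0 without a mutation. Each mutant stands for 1 allele, and the labels do not say whether replicates came from separate plants or cultures, so that p-values measure only the spread between these samples.

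FIP37 is a subunit of the methyltransferase complex that writes N6-methyladenosine (m6A) on mRNA. CPSF30 belongs to the complex that recognises polyadenylation signals and guides the cut at the 3′ end of a transcript, and CPSF30L carries in addition a YTH domain that binds m6A. When the cut is missed, RNA polymerase II can run on past the gene, and the transcript may join the RNA of a downstream gene. Reads behind a gene were used by the study to look for such readthrough, and the comparisons ask which windows gained reads when the m6A writer, CPSF30L or both CPSF30 proteins were lacking.

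The column totals ran from 5862499 to 8411827 counts, and the smallest amount taken as measurable, 3 counts, corresponded to between 0.357 and 0.512 CPM. This floor covers counting error only. The windows lie behind transcripts and do not measure them, so neither the seedling tissue nor the mutated genes could be checked by their transcripts. The window of the second transcript model of CPSF30, which overlaps the 3′ end of the first model, held 16 and 17 counts in the fip37L libraries, 0 and 0 in those of cpsf30-1 and 4 and 2 in those of cpsf30-3, against 19 and 14 in WT. The FIP37 window held 149 and 105 counts in the fip37L libraries, 39 and 44 in those of cpsf30-1 and 41 and 36 in those of cpsf30-3, against 56 and 37 in WT. Neither gene was a member.

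What lies under a member window differed. By the RefSeq annotation of TAIR10.1, 51 of the 128 windows (39.8%) overlapped another gene on the same strand, which for 39 of them was a protein-coding gene. A further 44 (34.4%) overlapped genes on the opposite strand only, 31 (24.2%) were free of other annotated genes, and AT5G18362 and AT5G39581 could not be placed. Among the 11906 windows of the WT range 33.0% overlapped a same-strand gene, 51.2% opposite-strand genes only and 15.0% none. Among the 86 lowered windows these shares were 19.8% for a same-strand gene, 34.9% for opposite-strand genes only and 45.3% for none. Members were 123 protein-coding genes and 3 pseudogenes among the 126 that were placed. The next gene on the same strand was searched among the counted and placed loci only, so a nearer annotated gene can be passed over. The HUA2 window overlaps AT5G23155, but its next gene by this search was AT5G23180, 8779 bp behind it. By this search the next gene began a median of 2094 bp behind a member, against 3174 bp over all placed windows of the range. The gap was under 500 bp in 33.3% of members, against 27.8%.

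The library kit marks the strand, and the study calls the read density behind genes strand-specific in its work on the nerd-1 mutant. The counts of facing windows were mixed. Of 11 pairs of windows on opposite strands that start within 5 bp of each other and hold at least 80 counts together, 2 had identical counts in all 8 libraries, and in 5 the totals lay within 10% of each other. In the other 6 the totals were further apart, as with 1713 counts at AT4G16510 against 130 at AT4G16520, which start at the same base, and with 236 at AT2G32170 against 91 at AT2G32180. Window positions are those of TAIR10.1, which can differ from the ones the authors counted. The members AT1G74320 (+) and AT1G74330 (-), both protein kinase genes, face each other tail to tail, and the AT1G74320 window held 72 and 43 counts in the fip37L libraries, 37 and 74 in those of cpsf30-1 and 49 and 48 in those of cpsf30-3, against 27 and 22 in WT. The AT1G74330 window held 79 and 43 counts in the fip37L libraries, 44 and 76 in those of cpsf30-1 and 52 and 49 in those of cpsf30-3, against 31 and 28 in WT. The windows of AT2G28420 (GLYI8, a glyoxalase family member) and AT2G28426 face each other in the same way and were equally close, with 59 and 68 counts in cpsf30-1 at AT2G28420 and 53 and 62 at AT2G28426. The pairs thus do not settle whether reads of a facing gene were counted in a member window. Reads of a gene and of its neighbour on the same strand cannot be told apart there. More transcript per cell and more cells that make it cannot be told apart either.

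The 3′ ends in front of the windows were read from the genome to see whether the members share the canonical polyadenylation signal. The hexamer AATAAA, searched on the strand of the gene, occurred in the last 30 bases of 7 of 126 placed members (5.56%), and in 762 of the 11808 placed windows of the WT range (6.45%). The shorter TGTA, part of the upstream element of plant poly(A) sites, occurred in the last 100 bases of 63 members (50.0%), against 54.4% of all windows of the range. AATAAA in the 500-bp window itself, on the same strand, was found in 47 members (37.3%), against 39.0%. A match marks letters, not a site in use. The last 30 bases (5′ to 3′, TAIR10.1, from the RefSeq genome) are shown for the 3 members of largest margin over a same-strand gene and for the members of the largest differences between mutants, followed by 4 of the 7 that hold the hexamer, in capitals.
AT1G43670, FBP, chr1:16470471-16470500, + strand: aatgcacataaaaatcttctttctttcata
AT4G25290, chr4:12941242-12941271, - strand: cactatttaattatttggacgttatgtcac
AT5G14910, chr5:4825623-4825652, + strand: tagaccaaaaacctgttcttaccaaaacat
AT1G48420, D-CDES, chr1:17895784-17895813, - strand: gagcaatgcacatggctgaaattgacatgt
AT4G35250, HCF244, chr4:16771073-16771102, - strand: aaagtcttcttctcattcattggttcttgt
AT3G11910, UBP13, chr3:3761054-3761083, - strand: ttgaattaggaagactaaaaaagaaaatcg
AT5G04130, GYRB2, chr5:1121800-1121829, - strand: tcagagatgtccaacaAATAAAgtctcatt
AT3G22630, PBD1, chr3:8009540-8009569, - strand: acttcaacaacacaaAATAAAtctcactcg
AT1G15030, chr1:5180020-5180049, + strand: ctgtttttgcAATAAAggctaatagttgag
AT2G40840, DPE2, chr2:17051033-17051062, + strand: aaacgcgggaatatcagaaacgtaAATAAA
The hexamer sits 14 bases from the end of GYRB2, counted from its first base, 15 in PBD1 and 20 in AT1G15030, while in DPE2 it is the very end of the annotated gene.

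The members were mostly low in WT. Their WT mean ran from 5 to 316 counts with a median of 11.5, against a median of 41.5 over all windows of the range, and 84 members (65.6%) lay under 20 counts, against 33.9% of all. As a group the median CPM of the members was 7.07 and 6.33 in the fip37L libraries, 8.27 and 8.58 in those of cpsf30-1 and 5.04 and 5.72 in those of cpsf30-3, against 1.72 and 1.79 in WT. The mean over WT had a median of 3.32-fold in fip37L (1.59 to 12.7), 3.50-fold in cpsf30-1 (1.73 to 46.0) and 2.58-fold in cpsf30-3 (1.65 to 11.4). The margin, defined as the lowest of the 6 mutant CPM values over the higher WT value, had a median of 1.74; it reached 2 in 30 members and 3 in 5 of them. The lowest mutant library was one of cpsf30-3 in 66 members, of fip37L in 40 and of cpsf30-1 in 22. The group mean was highest in cpsf30-1 in 74 members, in fip37L in 44 and in cpsf30-3 in 10.

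Just inside the threshold stood AT5G45190 (margin 1.503), AT5G48400 (ATGLR1.2, 1.507) and AT1G26660 (1.507). Just outside were AT1G51805 (1.497), AT1G80560 (IMD2, 1.487) and AT3G62460 (1.487). AT5G45190, which codes for a cyclin family protein, held 42 and 24 counts in the fip37L libraries, 29 and 14 in those of cpsf30-1 and 17 and 13 in those of cpsf30-3, against 7 and 9 in WT. The excluded AT1G51805 held 15 and 10 counts in the fip37L libraries, 27 and 30 in those of cpsf30-1 and 15 and 14 in those of cpsf30-3, against 8 and 6 in WT, so that the members end where their neighbours in rank hold similar counts. In all, 37 members had a margin under 1.6.

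**Figure D1:**
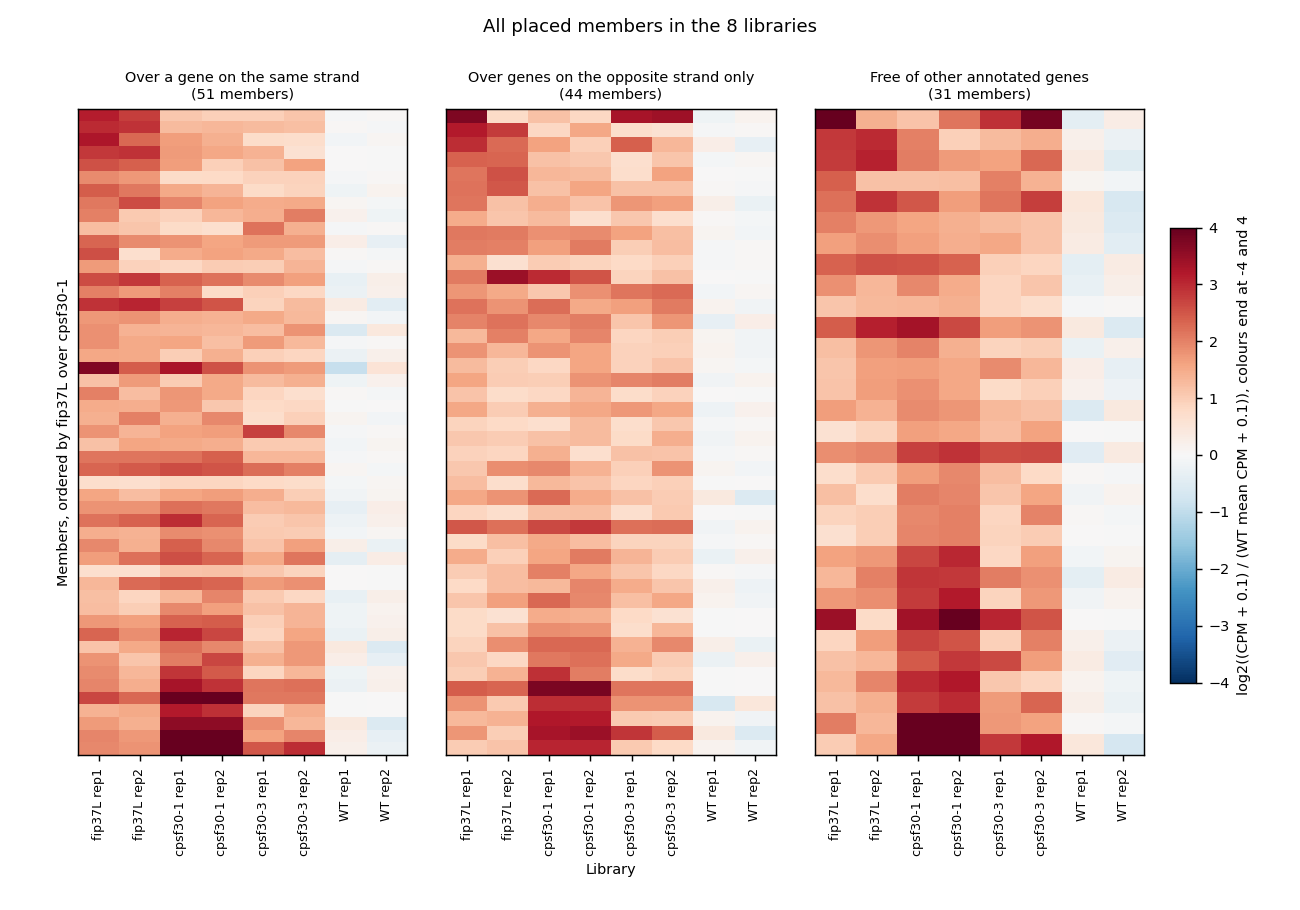
The 126 placed members (rows) in the 8 libraries (columns), in 3 classes by what their window overlaps; colour gives log2 of CPM over the WT mean, with 0.1 added to both. The mutant columns are raised by the choice of members; members are ordered by fip37L over cpsf30-1, so those at the lower end of each class are strongest in cpsf30-1, and colours end at -4 and 4.

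An edgeR quasi-likelihood fit of all 8 libraries to 12583 windows gives the same differences on one scale (log2, TMM normalization), where a call needs at least 2-fold and an adjusted p (Benjamini-Hochberg) under 0.05. All 128 members passed its filter on low counts. Since the rule used these contrasts, the calls are a description. In fip37L 112 members were called higher than in WT, where 7.10% of all tested windows were, with a median log2 difference of 1.82 (0.03 over all windows). In cpsf30-1 there were 111, beside 11.0% of all windows, with a median of 1.81 (-0.03). In cpsf30-3 there were 50, beside 1.33% of all windows, with a median of 1.42 (0.00). No member was called lower in any mutant, which the rule fixes, since all 128 differences were above 0 in each. The background for lower calls was 2.85% in fip37L, 2.57% in cpsf30-1 and 0.159% in cpsf30-3. The call was made in 3 mutants for 44 members, in 2 for 60, in 1 for 21 and in none for 3, and 55 of the 60 lacked only that of cpsf30-3. Of all 12583 tested windows 68 were called higher in all 3 mutants, and 44 of these 68 were members. Windows called in fewer mutants were not counted over all tested windows. The cpsf30-3 count rested on single libraries: it was 7 and 9 without WT replicate 1 or 2, 20 and 17 without cpsf30-3 replicate 1 or 2, 24 without either cpsf30-1 replicate and 82 without either fip37L replicate. The fip37L count was 58 without WT replicate 1 and 67 without WT replicate 2.

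Among windows that overlap another gene on their strand, which a transcript that runs on would enter, the largest margin (4.25) was that of AT1G43670 (FBP, a fructose-1,6-bisphosphatase of sucrose synthesis; chromosome 1, 16470501 to 16471000). It had 40.4 and 31.1 CPM in the fip37L libraries, 99.1 and 102 in those of cpsf30-1 and 27.2 and 27.3 in those of cpsf30-3, against 6.18 and 6.41 in WT. The log2 difference from WT was 2.61 ± 0.16 (SE) in fip37L, 4.0 ± 0.16 in cpsf30-1 and 2.17 ± 0.16 in cpsf30-3. The window covers the start of the pseudogene AT1G43675, whose own window (chromosome 1, 16471249 to 16471748), 248 bp further on, was a member too and had the largest margin of all, 4.35. AT1G43675 had 53.5 and 49.8 CPM in the fip37L libraries, 136 and 138 in those of cpsf30-1 and 43.6 and 43.5 in those of cpsf30-3, against 9.76 and 9.99 in WT. Both windows showed the same order of lines, with cpsf30-1 the highest, then fip37L, cpsf30-3 and WT, and no overlap between lines.

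AT4G25290 (annotated as a DNA photolyase, an enzyme family of light-driven DNA repair; chromosome 4, 12940742 to 12941241) had the highest reads of the 8 named members of this class. Its window had 114 and 124 CPM in the fip37L libraries, 139 and 130 in those of cpsf30-1 and 107 and 92.8 in those of cpsf30-3, against 23.8 and 21.5 in WT, and no pair of mutants differed by the call. The window lies on AT4G25280, which codes for a P-loop nucleoside triphosphate hydrolase family protein and begins 34 bp behind it. The window behind AT4G25280 was itself a member, at 13.8 and 18.4 CPM in the fip37L libraries, 17.6 and 16.9 in those of cpsf30-1 and 12.8 and 12.8 in those of cpsf30-3, against 5.63 and 6.56 in WT. So 2 genes in a row on 1 strand had a member window behind them.

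AT5G14910 (annotated in a heavy metal transport and detoxification family; chromosome 5, 4825653 to 4826152) overlaps AT5G14920, of the gibberellin-regulated family. It had 4.28 and 3.95 CPM in the fip37L libraries, 37.5 and 37.9 in those of cpsf30-1 and 6.40 and 8.99 in those of cpsf30-3, against 1.24 and 0.895 in WT, so that the lines separated without overlap. HUA2 (AT5G23150), a regulator of flowering, had 9.27 and 13.2 CPM in the fip37L libraries, 8.36 and 6.49 in those of cpsf30-1 and 5.99 and 6.05 in those of cpsf30-3, against 2.20 and 1.94 in WT. Its window overlaps the noncoding RNA AT5G23155. AT1G29550 (an eIF4E family protein, the cap-binding factor of translation) lies 44 bp before the zinc finger gene AT1G29560, and it had 21.9 and 25.5 CPM in the fip37L libraries, 18.4 and 16.4 in those of cpsf30-1 and 13.5 and 11.3 in those of cpsf30-3, against 2.89 and 4.18 in WT. The mean was highest in fip37L at both HUA2 and AT1G29550.

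CIP7 (AT4G27430), which codes for a partner of the photomorphogenesis repressor COP1, had 3.33 and 2.80 CPM in the fip37L libraries, 15.2 and 14.6 in those of cpsf30-1 and 2.59 and 3.27 in those of cpsf30-3, against 0.962 and 0.597 in WT. The window overlaps AT4G27435, and its values were at least 14.6 CPM in cpsf30-1 and at most 3.33 in the other lines. AT3G17626, annotated as a structural ribosomal protein, had 3.21 and 6.25 CPM in the fip37L libraries, 6.99 and 6.49 in those of cpsf30-1 and 4.22 and 4.58 in those of cpsf30-3, against 1.24 and 1.19 in WT. Its 3′ end lies inside the cation/proton exchanger gene CHX19 (AT3G17630). ATG3 (AT5G61500), an enzyme of the autophagy conjugation pathway, had 4.16 and 4.11 CPM in the fip37L libraries, 4.26 and 4.90 in those of cpsf30-1 and 2.32 and 2.29 in those of cpsf30-3, against 0.824 and 0.895 in WT, and its cpsf30-3 values were the lowest of the mutants.

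Windows over opposite-strand genes only came next. After AT1G43675 the largest margin was 4.30, for UGT73D1 (AT3G53150, a UDP-glucosyltransferase; chromosome 3, 19697107 to 19697606). It had 14.9 and 12.2 CPM in the fip37L libraries, 16.7 and 19.0 in those of cpsf30-1 and 12.3 and 12.6 in those of cpsf30-3, against 2.34 and 2.83 in WT. It faces LUT1 (AT3G53130), a cytochrome P450 of lutein synthesis, and the methyltransferase gene AT3G53140. The mutant libraries at UGT73D1 lay between 12.2 and 19.0 CPM, and no pair of mutants differed by the call.

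The pseudogene AT4G08110, which faces the pseudogene AT4G08100, had 7.01 and 5.43 CPM in the fip37L libraries, 7.33 and 4.47 in those of cpsf30-1 and 4.90 and 6.70 in those of cpsf30-3, against 1.65 and 1.34 in WT. VP2 (AT1G78920), a proton-pumping pyrophosphatase, had 5.23 and 5.10 CPM in the fip37L libraries, 4.26 and 4.47 in those of cpsf30-1 and 3.68 and 2.78 in those of cpsf30-3, against 1.24 and 1.04 in WT. AT3G49910, annotated as a translation protein of the SH3-like family, had 4.40 and 6.42 CPM in the fip37L libraries, 10.1 and 7.78 in those of cpsf30-1 and 4.77 and 6.05 in those of cpsf30-3, against 2.20 and 1.79 in WT. These 3 windows stayed at or under 10.1 CPM in every library, and the last faces VDAC5. GLYI8 had 2.62 and 2.80 CPM in the fip37L libraries, 10.1 and 9.80 in those of cpsf30-1 and 2.18 and 2.13 in those of cpsf30-3, against 1.10 and 0.895 in WT, so that only the cpsf30-1 libraries exceeded 2.80 CPM. AT2G21420, with an IBR domain, had 11.7 and 14.5 CPM in the fip37L libraries, 5.80 and 7.64 in those of cpsf30-1 and 5.72 and 5.72 in those of cpsf30-3, against 2.61 and 2.39 in WT, with fip37L above all other libraries. AT4G37608 was far higher, at 90.0 and 75.7 CPM in the fip37L libraries, 56.6 and 95.0 in those of cpsf30-1 and 117 and 129 in those of cpsf30-3, against 24.9 and 28.3 in WT. It faces BT5 (AT4G37610, a BTB and TAZ domain protein), and it was 1 of the 10 members with the highest mean in cpsf30-3.

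Windows free of annotated genes on both strands were led by AT3G56210 (an ARM repeat protein; chromosome 3, 20852331 to 20852830; margin 2.90). It had 30.7 and 32.7 CPM in the fip37L libraries, 55.4 and 62.7 in those of cpsf30-1 and 51.8 and 52.5 in those of cpsf30-3, against 6.05 and 10.6 in WT. In this window cpsf30-3 was close to cpsf30-1 (log2 difference of cpsf30-1 over cpsf30-3 0.13 ± 0.17, adjusted p = 0.66 by edgeR). D-CDES (AT1G48420), a D-cysteine desulfhydrase, had 3.57 and 2.14 CPM in the fip37L libraries, 22.7 and 18.9 in those of cpsf30-1 and 2.86 and 2.62 in those of cpsf30-3, against 0.824 and 0.746 in WT. The serine carboxypeptidase-like gene scpl2 (AT1G73300) had 5.35 and 8.72 CPM in the fip37L libraries, 10.1 and 6.20 in those of cpsf30-1 and 3.13 and 3.43 in those of cpsf30-3, against 1.24 and 0.597 in WT. Both were called higher in cpsf30-1 than in cpsf30-3, with a log2 difference of 2.86 ± 0.26 at D-CDES and of 1.25 ± 0.35 at scpl2 (edgeR adjusted p = 0.050).

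AT5G03090 (annotated Mto 1 responding down protein) had 10.8 and 13.3 CPM in the fip37L libraries, 6.48 and 5.05 in those of cpsf30-1 and 4.77 and 7.68 in those of cpsf30-3, against 1.92 and 1.04 in WT. PAB2 (AT4G34110), a poly(A)-binding protein, had 4.87 and 7.90 CPM in the fip37L libraries, 5.97 and 3.32 in those of cpsf30-1 and 4.63 and 7.19 in those of cpsf30-3, against 1.37 and 0.597 in WT. The heat shock transcription factor gene HSFA7A (AT3G51910) had 13.9 and 5.92 CPM in the fip37L libraries, 5.97 and 6.05 in those of cpsf30-1 and 10.8 and 6.87 in those of cpsf30-3, against 2.75 and 2.39 in WT. The fip37L replicates differed by more than 2-fold at HSFA7A, and they were closer at the other genes just named. AT1G52315, annotated with the domain of a Vps4 regulator, had 2.50 and 4.11 CPM in the fip37L libraries, 7.51 and 7.21 in those of cpsf30-1 and 4.22 and 3.60 in those of cpsf30-3, against 0.687 and 1.19 in WT, and the gene upstream of it, AT1G52310, a protein kinase family member whose window overlaps AT1G52315, was a member as well. AT2G36895, annotated as a D-tagatose bisphosphate aldolase subunit, had 2.97 and 3.62 CPM in the fip37L libraries, 9.55 and 10.7 in those of cpsf30-1 and 4.36 and 6.87 in those of cpsf30-3, against 1.51 and 1.04 in WT.

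**Figure D2:**
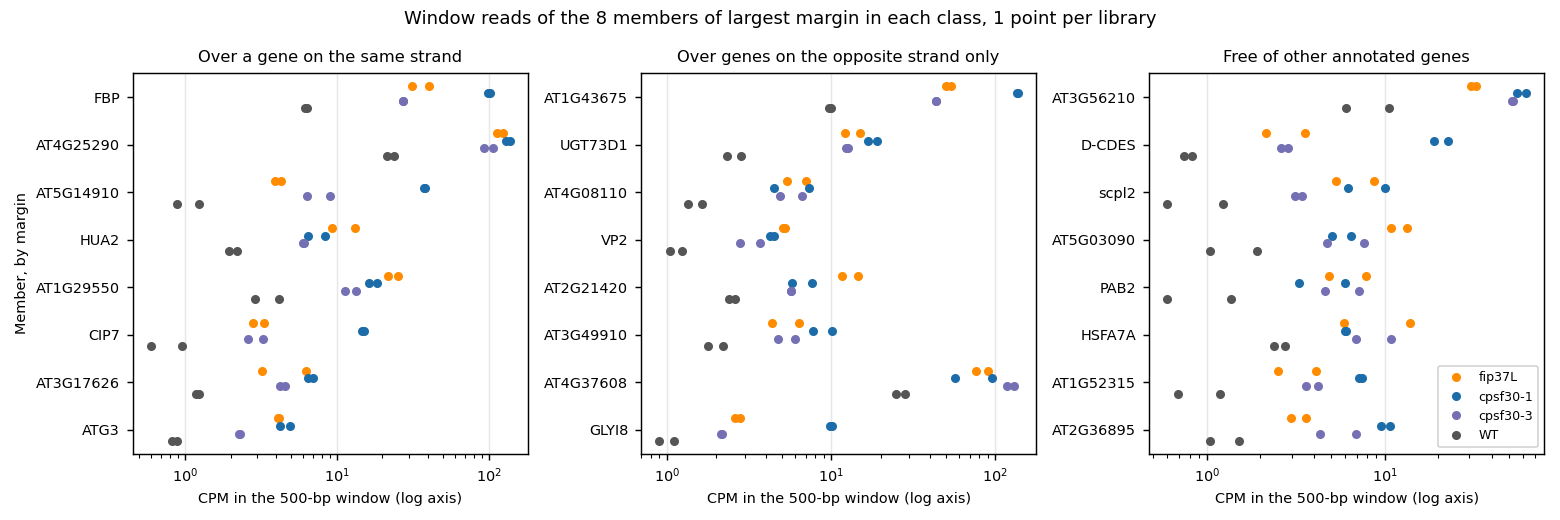
CPM (log axis) of the 8 members of largest margin in each class of window, with 1 point per library and colour for the line. By the choice of members all mutant points lie right of the WT points; cpsf30-1 lies to the right of the other mutants, by the call, at FBP, AT5G14910, CIP7, AT1G43675, GLYI8 and D-CDES.

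Of the members without a place on the annotation, AT5G18362 had 5.83 and 5.59 CPM in the fip37L libraries, 8.70 and 6.05 in those of cpsf30-1 and 3.13 and 4.58 in those of cpsf30-3, against 1.10 and 1.19 in WT. AT5G39581 had 17.5 and 10.5 CPM in the fip37L libraries, 13.3 and 18.6 in those of cpsf30-1 and 21.7 and 16.5 in those of cpsf30-3, against 6.32 and 4.62 in WT, and no pair of mutants differed by the call at either.

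Some members were neighbours. In 11 pairs of members the windows lay less than 5000 bp apart, and in 4 of the pairs both windows reached into the gene between them from its 2 ends. One such gene is NAP5 (AT1G71330, an ABC protein). The window of GDPD4 (AT1G71340, a glycerophosphodiester phosphodiesterase) enters it from upstream on its strand, with 11.9 and 11.7 CPM in the fip37L libraries, 15.5 and 14.7 in those of cpsf30-1 and 7.90 and 8.34 in those of cpsf30-3, against 2.61 and 4.03 in WT. The window of AT1G71320 (an F-box protein) reaches it from the other end on the opposite strand, with 13.0 and 9.21 CPM in the fip37L libraries, 13.0 and 11.1 in those of cpsf30-1 and 6.95 and 7.19 in those of cpsf30-3, against 3.98 and 3.28 in WT. The same arrangement was found around AT2G21430, a papain family protease gene, between AT2G21440 and AT2G21420. There fip37L was the highest line in both windows, and AT2G21440, annotated as an RNA-binding protein, had 10.3 and 10.7 CPM in the fip37L libraries, 4.61 and 4.18 in those of cpsf30-1 and 3.68 and 2.13 in those of cpsf30-3, against 1.37 and 1.34 in WT.

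AT5G16360 (an NC domain protein) lies in the same way between AAE5 (AT5G16370, an acyl-activating enzyme) and AT5G16350 (an O-acyltransferase family gene). The AAE5 window had 7.25 and 5.26 CPM in the fip37L libraries, 6.31 and 6.63 in those of cpsf30-1 and 13.9 and 7.85 in those of cpsf30-3, against 1.92 and 2.09 in WT. The AT5G16350 window had 18.7 and 13.0 CPM in the fip37L libraries, 17.2 and 18.5 in those of cpsf30-1 and 21.4 and 18.6 in those of cpsf30-3, against 5.50 and 7.16 in WT, and in both a cpsf30-3 library was the highest of the 8. The fourth case is AT1G74330, between AT1G74340 (DPMS2) and AT1G74320. Pairs of this kind are not separate observations, and neither are windows that share bases, of which there were 2 pairs. The windows of AT1G25112 and AT1G25025 carry identical sequence over all 500 bases, so that their reads cannot be assigned to either, and their values are uncertain and not separate observations. AT1G25112 held 285 and 433 counts in cpsf30-1 and 45 and 51 in WT, and AT1G25025 held 288 and 435 in cpsf30-1 and 52 and 55 in WT.

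Replicates agreed less well in some members. The CPM values of the replicates lay more than 2-fold apart in 8 members in fip37L, 4 in cpsf30-1, 3 in cpsf30-3 and 12 in WT. At AT1G04190 (TPR3), the most uneven, the values were 13.6 and 1.65 CPM in the fip37L libraries, 2.22 and 1.73 in those of cpsf30-1 and 10.1 and 10.8 in those of cpsf30-3, against 0.824 and 1.04 in WT. At EMB2001 (AT2G22870), annotated with a P-loop domain, they were 37.7 and 4.61 CPM in the fip37L libraries, 3.75 and 7.64 in those of cpsf30-1 and 13.2 and 24.8 in those of cpsf30-3, against 1.24 and 2.09 in WT. At both genes replicate 1 carried most of the fip37L reads, and these genes were chosen for mention after their values were seen. Of the 31 member loci with another transcript model of different counts, every other model also met the 1.5-fold margin in 10.

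The rule sets no order among the mutants, and the differences between them were tested in the same edgeR fit, adjusted over all 12583 windows. The values of the same mutant libraries chose the members, so the shares of members beside those of all windows are given as a description. In 45 of the 128 members at least 1 pair of mutants differed by the call, and in 83 none did. The share of all tested windows with such a pair was not counted, so the 45 have no background beside them. The members were higher in cpsf30-1 than in cpsf30-3 in 23 cases (18.0%), where 6.19% of all tested windows were, and lower in 0, where 1.45% of all were. The members' median log2 difference was 0.55, against -0.01 over all windows. At an unadjusted p under 0.05 there were 56 higher and 6 lower, and DESeq2 called 19 higher and 1 lower. With no filter 26 were called higher and 3 lower, and with only the 2 groups compared 24 higher and 2 lower. In fip37L against cpsf30-3, 16 members were higher (12.5%, beside 4.14% of all windows) and 2 lower (beside 2.59%), with a median of 0.25. In fip37L against cpsf30-1, 13 were higher (10.2%, beside 7.70%) and 23 lower (beside 10.2%), with a median of -0.09. The 16 and the 13 include UBP13, whose window passed the filter on low counts only with the fip37L libraries, so its calls are no test. The 3 comparisons share libraries and are not independent of each other. Without cpsf30-3 replicate 1 the 23 became 13, and without cpsf30-1 replicate 1 they became 14.

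By class, the 23 members higher in cpsf30-1 than in cpsf30-3 were 7 of 31 free windows (22.6%), 10 of 51 over a same-strand gene (19.6%) and 6 of 44 over opposite-strand genes only (13.6%). Over all tested windows these shares were 17.5% of free windows, 6.77% of those over a same-strand gene and 3.15% of those over opposite-strand genes only. Members lower in fip37L than in cpsf30-1 were 10 of the 31 free windows (32.3%), where 27.3% of all free windows were, a share near the background. In the same-strand class they were 6 (11.8%, beside 9.54%), and in the opposite-strand class 7 (15.9%, beside 6.47%).

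In 15 members cpsf30-1 was higher by the call than both other mutants. This joint call was not counted over all tested windows, so the 15 are a description of the members only. These were AT1G43675, FBP, AT5G14910, CIP7, D-CDES, AT1G52310, GLYI8, PSAK (AT1G30380, a photosystem I subunit), AT1G25112, GGT1 (AT1G23310, an aminotransferase of photorespiration), AT1G25025, AT3G49950, AT2G28426, AT1G15030 and HCF244. They were 5 in each class of window. The 15 are not separate observations, since AT1G25112 and AT1G25025 carry identical windows and the windows of GLYI8 and AT2G28426 share bases. FBP and AT1G43675 are also neighbours on 1 strand. Of these, the 3 largest differences from cpsf30-3 were those of D-CDES, CIP7 and HCF244.

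HCF244 (AT4G35250), a factor for the making of the photosystem II protein D1, had the largest log2 difference from WT of any member in any mutant (5.47 ± 0.32 in cpsf30-1). Its window (chromosome 4, 16770573 to 16771072), free of other genes, held 14 and 15 counts in the fip37L libraries, 219 and 234 in those of cpsf30-1 and 45 and 49 in those of cpsf30-3, against 8 and 3 in WT. This was 1.66 and 2.47 CPM in the fip37L libraries, 37.4 and 33.7 in those of cpsf30-1 and 6.13 and 8.01 in those of cpsf30-3, against 1.10 and 0.447 in WT. The lines did not overlap, and fip37L was the nearest to WT. The log2 difference was 2.29 ± 0.24 for cpsf30-1 over cpsf30-3 (SE, edgeR adjusted p = 5.8e-04), -1.74 ± 0.31 for fip37L over cpsf30-3 (adjusted p = 0.0068) and -4.03 ± 0.28 for fip37L over cpsf30-1 (adjusted p = 3.5e-05).

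At D-CDES (chromosome 1, 17895284 to 17895783) fip37L and cpsf30-3 had at most 3.57 CPM in a library and cpsf30-1 at least 18.9. The log2 difference of cpsf30-1 over cpsf30-3 was 2.86 ± 0.26 (edgeR adjusted p = 3.3e-04). That of fip37L over cpsf30-1 was -2.72 ± 0.25 (adjusted p = 1.3e-04), and that of fip37L over cpsf30-3 was 0.14 ± 0.31, which was not called. CIP7 (chromosome 4, 13723462 to 13723961) was also highest in cpsf30-1, with 2.3 ± 0.23 for cpsf30-1 over cpsf30-3 (adjusted p = 5.7e-04). At AT5G14910 the difference of fip37L over cpsf30-1 was -3.09 ± 0.21 (adjusted p = 3.5e-05). GYRB2 (AT5G04130), a gyrase subunit gene, was 1 of the 2 members lower in fip37L than in cpsf30-3, besides HCF244. It had 2.62 and 1.48 CPM in the fip37L libraries, 7.85 and 8.51 in those of cpsf30-1 and 5.72 and 4.25 in those of cpsf30-3, against 0.962 and 0.447 in WT. The difference of fip37L over cpsf30-3 there was -1.19 ± 0.34 (adjusted p = 0.043), a call that was lost without any 1 library other than fip37L replicate 1 (adjusted p between 0.059 and 0.23).

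In 11 members fip37L was higher by the call than both other mutants. Here too the joint call was not counted over all tested windows, and the 11 are a description. These were AT5G03090, AT2G41640, AT2G21420, AT3G28950, ARI5, AT2G38250, PBD1, AT5G06770, AT2G21440, UBP13 and AT2G28450. The windows of AT2G21420 and AT2G21440 reach into the same gene and are not separate observations. UBP13 (AT3G11910), a ubiquitin-specific protease, had the largest difference from cpsf30-3. Its window (chromosome 3, 3760554 to 3761053) held 61 and 34 counts in the fip37L libraries, 8 and 16 in those of cpsf30-1 and 9 and 7 in those of cpsf30-3, against 5 and 5 in WT. On the log2 scale fip37L exceeded cpsf30-3 by 2.48 ± 0.34 (SE) and cpsf30-1 by 1.88 ± 0.31. The window passed the filter on low counts only with the fip37L libraries, so these differences are a description and no test is given for them. Its WT level of 5 counts in each library is at the lower end of the range.

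AT5G06770, which codes for a protein with KH and zinc finger domains (chromosome 5, 2090203 to 2090702), had 25.9 and 13.5 CPM in the fip37L libraries, 8.70 and 7.21 in those of cpsf30-1 and 4.50 and 4.41 in those of cpsf30-3, against 2.47 and 2.83 in WT. The fip37L replicates were uneven but both stood above all other libraries, and the difference of fip37L over cpsf30-3 was 2.21 ± 0.31 (edgeR adjusted p = 0.0029). The window overlaps LEA4-5 (AT5G06760), a late embryogenesis abundant protein gene of the water stress response. ARI5 (AT1G05890), a RING/U-box family ubiquitin ligase (chromosome 1, 1784676 to 1785175), had 9.51 and 7.40 CPM in the fip37L libraries, 2.22 and 2.02 in those of cpsf30-1 and 2.04 and 2.29 in those of cpsf30-3, against 0.962 and 1.04 in WT. The log2 difference of cpsf30-1 over cpsf30-3 was -0.08 ± 0.32 there (adjusted p = 0.92), and fip37L exceeded cpsf30-3 by 2.02 ± 0.26 (adjusted p = 0.0020) and cpsf30-1 by 2.10 ± 0.26 (adjusted p = 5.2e-04). AT2G41640, a glycosyltransferase of family 61 (chromosome 2, 17362602 to 17363101), had 46.6 and 44.1 CPM in the fip37L libraries, 14.3 and 15.0 in those of cpsf30-1 and 14.3 and 13.7 in those of cpsf30-3, against 6.05 and 5.67 in WT. It was highest in fip37L too, with fip37L over cpsf30-1 by 1.72 ± 0.13 (adjusted p = 5.4e-05).

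**Figure D3:**
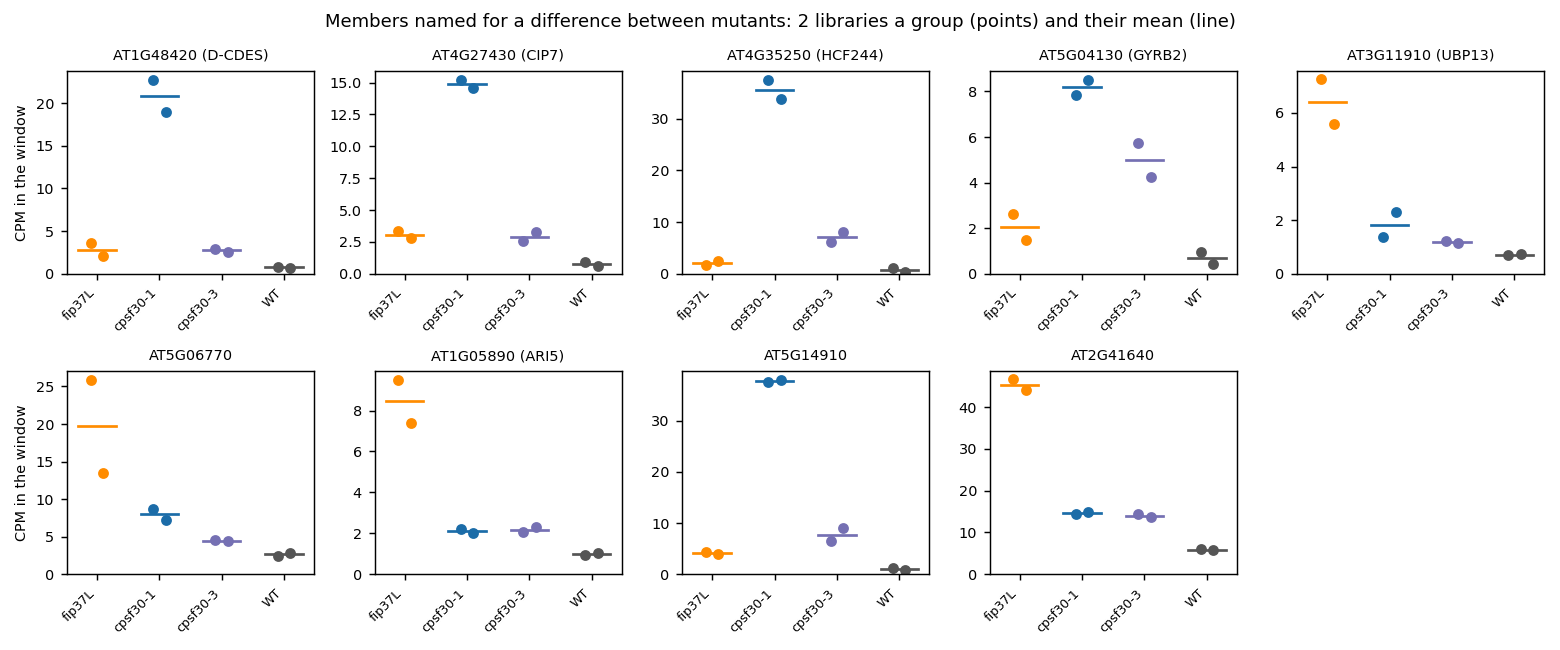
CPM in the window of the 9 members named for a difference between mutants, with 2 points per line for the replicates and a bar at their mean. HCF244, D-CDES, CIP7 and AT5G14910 are highest in cpsf30-1, while UBP13, AT5G06770, ARI5 and AT2G41640 are highest in fip37L; the WT points lie at or under 6.05 CPM in all panels.

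Reads further downstream were not used by the rule. For each member the window behind the next gene on its strand, searched among the counted and placed loci, was taken. It was kept where it was no member and shared no base with one. Of the 128 members, 2 had no next gene assigned, 4 had a member as the next gene, in 5 the next window overlapped a member window and in 57 it was too low to test, which left 60 windows. In fip37L 8 of the 60 were called higher than in WT (13.3%, beside 7.10% of all tested windows) and 0 lower (beside 2.85%), with 4 lower at an unadjusted p under 0.05 and 0 by DESeq2. In cpsf30-1 there were 10 higher (16.7%, beside 11.0%) and 2 lower (beside 2.57%). At an unadjusted p under 0.05 cpsf30-1 had 15 higher and 13 lower, and DESeq2 called 6 higher and 2 lower. In cpsf30-3 there were 2 higher (3.33%, beside 1.33%) and 0 lower (beside 0.159%), with 6 lower at an unadjusted p under 0.05 and 0 by DESeq2. The unadjusted counts of higher windows were 17 in fip37L and 10 in cpsf30-3. The median log2 difference was 0.21 in fip37L (0.03 over all windows), 0.06 in cpsf30-1 (-0.03) and 0.07 in cpsf30-3 (0.00). In fip37L 34 of the 60 differences were above 0, in cpsf30-1 35 and in cpsf30-3 33. A window that is low in WT passed the filter on low counts only where a mutant was high, so these counts are a description of the 60 windows and the shares are not those of all next genes. The fip37L count fell to 5 without WT replicate 2, and the cpsf30-1 count to 5 without WT replicate 2 and to 6 without either cpsf30-1 replicate. The cpsf30-3 count was 0 without any 1 of the WT, cpsf30-1 or cpsf30-3 libraries and 6 without either fip37L replicate.

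Of the 60, 14 were called higher in at least 1 mutant, and 7 of these 14 lie behind the 25 tested members of the same-strand class. The share of all tested windows called higher in at least 1 mutant was not counted. The largest difference was at AT5G14920 (chromosome 5, 4828385 to 4828884), the gibberellin-regulated gene that the AT5G14910 window enters. The window behind it, 2232 bp past the member window, held 0 and 0 counts in the fip37L libraries, 27 and 37 in those of cpsf30-1 and 1 and 4 in those of cpsf30-3, against 0 and 2 in WT. Its summed CPM in cpsf30-1 was 35.0 times that in WT, with a 95% counting interval from 9.29 to 295 (exact, binomial). This interval and those given below cover counting error only and leave out the spread between replicates. They belong to windows picked by their values and are no test. The window passed the filter on low counts through the cpsf30-1 libraries alone, so no test is given for it. The highest line was cpsf30-1 in the member window and behind its next gene, and fip37L had no read behind the next gene.

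AT1G30390, a pseudogene behind PSAK (chromosome 1, 10725017 to 10725516), held 1 and 0 counts in the fip37L libraries, 29 and 18 in those of cpsf30-1 and 2 and 7 in those of cpsf30-3, against 2 and 0 in WT. The ratio of cpsf30-1 to WT was 25.7 (6.72 to 218). AT1G73290, the gene scpl5 behind its relative scpl2 (chromosome 1, 27555701 to 27556200), held 7 and 12 counts in the fip37L libraries, 13 and 10 in those of cpsf30-1 and 4 and 2 in those of cpsf30-3, against 0 and 1 in WT. The summed CPM was 18.3 times that of WT in fip37L (2.91 to 762) and 25.1 times in cpsf30-1 (4.08 to 1035). These windows too passed the filter only through mutant libraries, and their ratios are a description with no test.

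In 2 of the 60 next-gene windows the call was made in all 3 mutants, beside 68 of all 12583 tested windows. These 2 are named for that reason after their values were seen. AT3G28945, a pseudogene that begins 160 bp behind AT3G28950 (an AIG2-like family gene), held 29 and 17 counts in the fip37L libraries, 7 and 12 in those of cpsf30-1 and 15 and 10 in those of cpsf30-3, against 2 and 2 in WT (chromosome 3, 10969773 to 10970272). Its summed CPM was 11.1 times that of WT in fip37L (95% counting interval 4.05 to 42.4), 5.19 times in cpsf30-1 (1.72 to 21.0) and 6.49 times in cpsf30-3 (2.24 to 25.7). Each mutant library stood above both WT libraries, by at least 5 counts. The AT1G49700 window overlaps another gene on its strand, and NQR (AT1G49670), 2645 bp behind AT1G49700, was the next gene found by the search. The NQR window held 22 and 13 counts in the fip37L libraries, 11 and 15 in those of cpsf30-1 and 14 and 13 in those of cpsf30-3, against 2 and 3 in WT (chromosome 1, 18380758 to 18381257). There the ratios to WT were 6.75 in fip37L (2.64 to 22.1), 5.68 in cpsf30-1 (2.15 to 18.9) and 5.61 in cpsf30-3 (2.13 to 18.7). Both windows held at most 3 counts in a WT library and passed the filter through the mutants, so no test is given for them. Their cpsf30-1 and cpsf30-3 calls were lost with DESeq2 and without WT replicate 1.

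**Figure D4:**
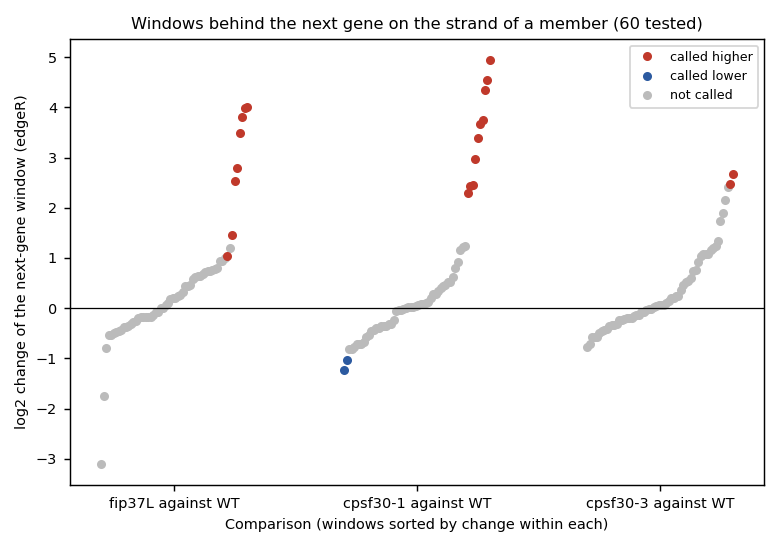
The log2 difference from WT (edgeR) of the 60 tested windows behind the next gene of a member, sorted within each mutant, with called windows in colour. Most points lie near 0, and 8 in fip37L, 10 in cpsf30-1 and 2 in cpsf30-3 are called higher than in WT. In cpsf30-1 2 are called lower.

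A list of loci with putative chimeric or extended mRNAs, from the study's work on the nerd-1 mutant, was set beside the members, with a list of RNA-processing genes and a list of stress genes. Of the 54 genes of that list, 35 had a WT mean in the range and 5 were members, beside 1.08% of all windows of the range. They were ARI5, GDPD4, AT2G21440, AT2G27260 (a LEA hydroxyproline-rich family gene) and UBP13. The last 2 are entered there as extended, with no partner gene. Of the 49 windows that could be tested, 27 were called higher in fip37L (beside 7.10% of all tested windows), 33 in cpsf30-1 (beside 11.0%) and 3 in cpsf30-3 (beside 1.33%), with median log2 differences of 1.48 in fip37L, 1.68 in cpsf30-1 and 0.69 in cpsf30-3. By DESeq2 18 were higher in fip37L, 18 in cpsf30-1 and 3 in cpsf30-3. None of the 49 was called lower by edgeR or DESeq2, and 0 were lower at an unadjusted p under 0.05. The 3 in cpsf30-3 were GDPD4, AT3G44890 and AT3G45443. That list was picked on related lines and is not independent evidence. AT2G27260 had 3.80 and 2.63 CPM in the fip37L libraries, 5.29 and 3.75 in those of cpsf30-1 and 2.18 and 3.11 in those of cpsf30-3, against 1.10 and 0.746 in WT. The values of the other 4 stand above. The study also gives a longer list of genes with more reads behind them in nerd-1, which was not set beside the members as a whole. HCF244, CIP7, PAB2, AT1G52310, AT4G08110 and AT5G45190 are among the members on it. It too was picked on a related line and is not independent evidence.

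Of 37 genes for cleavage and polyadenylation factors and for the m6A pathway, 25 were in the range and 0 were members, beside 1.08% of all windows of the range. Of the 21 tested, 1 was called higher in each mutant (FIP37 in fip37L, CSTF50 in cpsf30-1 and CPSF73-I in cpsf30-3), beside 7.10% of all tested windows in fip37L, 11.0% in cpsf30-1 and 1.33% in cpsf30-3. FIP37 is the gene mutated in fip37L, a line that also carries a further copy of it. The part of either in the call at the FIP37 window was not tested. By DESeq2 1 was higher in fip37L, 2 in cpsf30-1 and 1 in cpsf30-3. None was called lower, with 0 lower in fip37L, 3 in cpsf30-1 and 1 in cpsf30-3 at an unadjusted p under 0.05, and 0 lower by DESeq2. Of 30 genes of rapid stress responses, 9 were in the range and 0 were members, beside the same 1.08%. At that share lists as short as these 2 can hold 0 members without differing from all windows. Of the 12 tested, 1 was called higher in fip37L (beside 7.10%), 2 in cpsf30-1 (beside 11.0%) and 0 in cpsf30-3 (beside 1.33%; 3 at an unadjusted p under 0.05). By DESeq2 1 was higher in fip37L, 1 in cpsf30-1 and 0 in cpsf30-3. The higher calls were ERF98 in fip37L and DIC2 and TCH4 in cpsf30-1. In fip37L 2 of the 12 were called lower (beside 2.85%; 1 by DESeq2), WRKY18 and WRKY53, and in cpsf30-1 and cpsf30-3 0 were (1 in each at an unadjusted p under 0.05, and 0 by DESeq2). The list genes that are no members are named here after their values were seen.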

How the data were processed

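The authors removed organellar and ribosomal reads with Bowtie2 2.3.4, mapped the rest to TAIR10 with TopHat2 2.0.7 and used BEDTools to obtain the reads of 500 bp behind every annotated transcript. The submitters' notes also name Cufflinks 2.2.1 and Cuffdiff. The deposited values are raw counts for 39087 transcript models, 1 file per library.

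Windows were placed by the 3′ ends of the RefSeq annotation of TAIR10.1, so positions can differ from the authors' own. Counts of 1 window per locus were fitted with edgeR 4.0.16 (R 4.3.3; TMM, filter by group, quasi-likelihood, 4 groups, 4 residual degrees of freedom, two-sided, Benjamini-Hochberg adjustment over 12583 windows). The script was tested on simulated data. The fit was repeated without TMM, without the filter, with a replicate block, with only the 2 groups compared, with each library left out and with DESeq2 1.42.0. Other steps used Python 3.11.15.

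Members, lists and tests were chosen with earlier results of these data known. Named windows are the 8 members of largest margin in each class, list members, the 3 largest differences between mutants in each direction, the 3 largest next-gene differences and the 3 windows on each side of the threshold.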

Additional observations from a re-analysis of the deposited data

Results flagged for a closer look

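The members named for a difference between 2 mutants were singled out because that difference passed the threshold of a call in the edgeR fit over all windows. Both mutants lie above WT by the choice of members. For cpsf30-1 over cpsf30-3 the log2 differences were 2.86 at AT1G48420 (D-CDES), 2.3 at AT4G27430 (CIP7) and 2.29 at AT4G35250 (HCF244). For fip37L over cpsf30-3 they were 2.48 at AT3G11910 (UBP13), 2.21 at AT5G06770, 2.02 at AT1G05890 (ARI5), -1.74 at AT4G35250 and -1.19 at AT5G04130 (GYRB2). For fip37L over cpsf30-1 they were 2.10 at AT1G05890, 1.88 at AT3G11910, 1.72 at AT2G41640, -4.03 at AT4G35250, -3.09 at AT5G14910 and -2.72 at AT1G48420. The AT3G11910 window passed the filter on low counts only with the fip37L libraries, so its differences are a description and its calls are no test. The level of the genes themselves was not measured by these windows, and its part in the differences was not tested.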

How the results depend on the processing

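The number of members was 30 at a 2-fold threshold and 44 at a WT mean of at least 20 counts; it was 123 with CPM over 1 window per locus, 149 with TMM-scaled library sizes and 120 with the highest-numbered model, of which 110 were among the 128. It ran from 134 to 269 when 1 library was left out, with 217 without WT replicate 1 and 269 without WT replicate 2, since fewer libraries are easier to pass. Members called higher in cpsf30-3 numbered 90 with no filter and 84 with only the 2 groups compared. Leaving out 1 library gave 58 to 113 such members in fip37L, 78 to 116 in cpsf30-1 and 7 to 82 in cpsf30-3. It gave 13 to 28 members called in cpsf30-1 against cpsf30-3, 13 to 25 in fip37L against cpsf30-3 and 25 to 39 in fip37L against cpsf30-1. Next-gene windows called higher in fip37L numbered 5 with only the 2 groups compared and 14 with no fold threshold, and 5 to 9 without 1 library. In cpsf30-1 they numbered 6 with DESeq2, and 5 to 11. In cpsf30-3 they numbered 1 with DESeq2, 6 with no filter, 6 with only the 2 groups compared and 0 with the replicate block, and 0 to 6. The lone library of a group was assumed to vary like the other groups. Except for the settings named, the cause was not tested.

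With the replicate block the members called higher were 109 in fip37L, 113 in cpsf30-1 and 42 in cpsf30-3. Same-numbered deviations correlated between -0.089 and 0.044, so the numbers gave no sign of pairing. Of 309 alternative values for 24 differences, those called between mutants at named members and those of 5 next-gene windows, 268 kept the call, 41 lost it and 0 turned round. Between mutants the call was lost only at GYRB2, and the other losses were at next-gene windows. The UBP13 window and the 5 next-gene windows passed the filter on low counts through the mutants that were high. Their part in these numbers is a description and no test. Low WT counts limit the precision, since 84 members had a WT mean under 20.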
